A study of Mus musculus with 8 samples.

Results

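Immune checkpoint receptors and ligands were followed in microglia isolated from 2 brain regions, white matter and grey matter, of mice at 21 and at 4 months of age. The set holds 9 genes, taken by symbol from a table of 51810: the receptors Pdcd1 (PD-1), Havcr2 (TIM-3), Lag3, Cd200r1 and Sirpa, and the ligands Cd274 (PD-L1), Pdcd1lg2 (PD-L2), Cd80 and Cd86. Of these, 8 passed the filter on low counts and were tested. Pdcd1lg2 did not, with 4 counts in all libraries together. The genes were chosen by function and with results of these data known, among the measured values the fold change of Pdcd1 in white over grey matter at 21 months. Fold changes of that contrast are therefore given as a description, and nothing is read from counts of calls in it. The T cell genes Cd3e and Cd3g were read beside Pdcd1.

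Checkpoint receptors damp the activity of immune cells when they meet their ligands. PD-1 sits mainly on activated T cells and, when bound by PD-L1 or PD-L2 on another cell, recruits phosphatases that weaken signals from the antigen receptor. Microglia, the resident macrophages of the brain, are known to carry SIRPα and the CD200 receptor, which receive restraining signals from CD47 and CD200 on neurons and other cells. CD80 and CD86 on antigen-presenting cells bind both the activating receptor CD28 and the inhibitory receptor CTLA-4 of T cells.

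RNA came from wild-type mice in 4 groups of 2 libraries: 21-month white matter, 21-month grey matter, 4-month white matter and 4-month grey matter. The white matter was the corpus callosum, the fibre tract between the hemispheres. Myelin had been removed on a Percoll gradient and cells had been taken with magnetic beads against CD11b, a protein of microglia that monocytes, neutrophils and other myeloid cells share. For grey matter too the region label reads corpus callosum, so the split rests on the tissue label. The labels do not say whether a group's libraries are separate mice, and p-values then measure a spread between samples that may be technical. By its title, the series is about how microglia diversify as white matter ages.

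Libraries held between 3273258 and 6315782 counts. Levels below are CPM, counts scaled to library size by the trimmed mean of M-values (TMM). One library, the first of 4-month white matter, differed from all others and is called the oligodendrocyte-rich library below. The summed level of 12 oligodendrocyte markers was 67782 CPM in it and 208.9 to 2714 CPM in the other 7, and that of 15 microglia markers 4488 CPM and 16503 to 25999 CPM. The 8 neuron markers summed to 51.0 CPM in it and to 2.59 to 13.9 CPM in the other 7. Results that rest on it are given both ways. In bulk RNA, fewer cells of a type and less RNA per cell cannot be told apart.

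The promoters of Pdcd1 and Cd274 are shown because these members had the highest fold changes in old white over old grey matter, and that of Havcr2 as a member whose level varied little among 7 of the libraries. Promoter sequences were matched for 5 of the 9 members in RefSeq's GRCm38.p6 annotation (Pdcd1, Cd274, Pdcd1lg2, Havcr2 and Cd80). Each line gives the 250 bases before the annotated start, 5′ to 3′ on the gene's strand, with matches to the GC box GGGCGG, read on both strands, in capitals. The windows are chr1:94052554-94052803 on the minus strand for Pdcd1, chr19:29367188-29367437 on the plus strand for Cd274 and chr11:46454681-46454930 on the plus strand for Havcr2.
Pdcd1: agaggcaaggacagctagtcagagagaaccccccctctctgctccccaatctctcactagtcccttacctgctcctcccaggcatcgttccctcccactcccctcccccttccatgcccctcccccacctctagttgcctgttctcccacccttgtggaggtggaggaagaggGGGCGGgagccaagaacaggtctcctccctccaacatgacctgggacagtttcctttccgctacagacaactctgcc
Cd274: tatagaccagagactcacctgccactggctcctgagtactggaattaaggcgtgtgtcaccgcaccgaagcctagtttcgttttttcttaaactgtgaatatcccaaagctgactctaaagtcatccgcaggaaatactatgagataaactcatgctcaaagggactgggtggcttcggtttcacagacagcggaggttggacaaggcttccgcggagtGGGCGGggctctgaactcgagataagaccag
Havcr2: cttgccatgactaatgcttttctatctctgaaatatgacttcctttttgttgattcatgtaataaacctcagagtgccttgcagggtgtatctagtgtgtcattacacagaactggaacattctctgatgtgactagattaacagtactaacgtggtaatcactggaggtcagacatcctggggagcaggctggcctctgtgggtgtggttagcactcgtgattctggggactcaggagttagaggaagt

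The GC box matched once in Pdcd1, with its first base at -77 from the start, and once in Cd274, at -31. It matched in none of the other 3 members' windows. Of all 32851 promoter windows of this length in the table, 32.7% held it. The core of the interferon-stimulated response element, TTTC and TTTC with any 2 bases between them, in 3.0% of all windows, and the gamma-activated site TTCNNNGAA, in 7.0%, matched in none of the 5. The AP-1 site TGANTCA, in 6.7% of all windows, matched in Havcr2 and Cd80, and the ETS core AGGAAG, in 29.5%, in Pdcd1 and Havcr2. The ETS core and the GC box in Pdcd1 did not overlap. These matches are descriptions of letters. The windows of Pdcd1, Cd274 and Havcr2 were 60.4%, 50.4% and 44.8% G or C, beside a median of 52.4% over all windows.

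Pdcd1, which encodes the receptor PD-1, had its highest level in old white matter. It stood at 24.5 and 16.6 CPM (104 and 67 counts) in the 21-month white matter libraries, against 0.788 and 1.39 CPM (4 and 5 counts) in 21-month grey matter. Among the young libraries it stood at 2.53 and 0.998 CPM (7 and 4 counts) for white matter and at 2.26 and 0.909 CPM (13 and 5 counts) for grey matter. Both old white matter libraries thus lay above all other 6, and those 6 overlapped between their groups. Exact Poisson 95% intervals, which cover counting error only, ran from 85.0 to 126 and from 51.9 to 85.1 counts in 21-month white matter. The highest upper bound among the other 6 libraries was 22.2 counts. Group means were 20.5 ± 5.60 CPM in 21-month white matter, 1.09 ± 0.424 CPM in 21-month grey matter, 1.76 ± 1.08 CPM in 4-month white matter and 1.58 ± 0.952 CPM in 4-month grey matter (SD, n = 2 each).

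**Figure D1:**
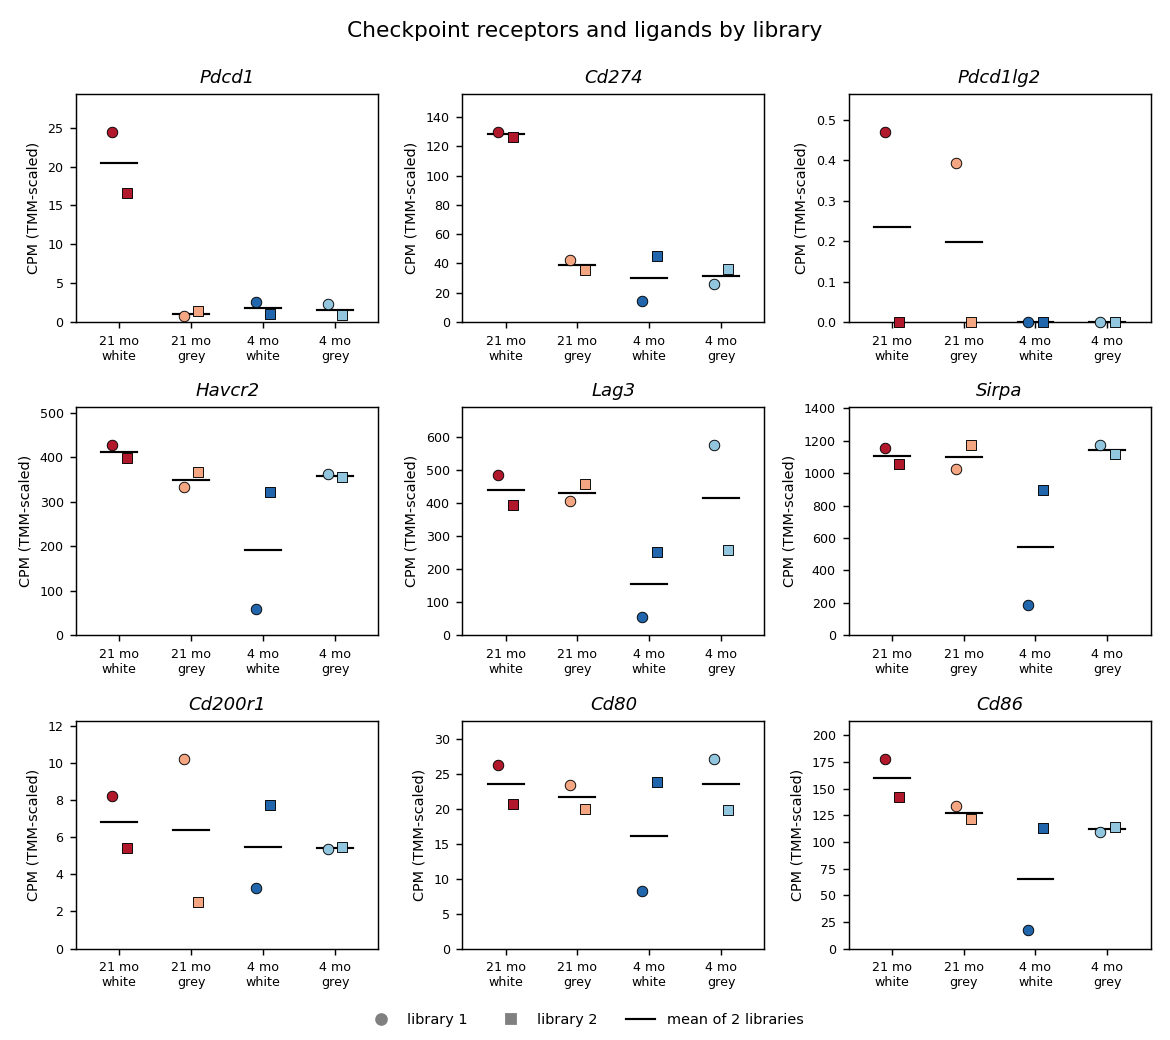
Level in CPM (TMM-scaled, linear axis from 0) of each of the 9 genes in the 8 libraries; circles are first and squares second libraries, and the bar is the mean of 2. Pdcd1 and Cd274 stand apart in 21-month white matter, while the oligodendrocyte-rich library (first of 4-month white matter) is lowest for Havcr2, Lag3, Sirpa, Cd80, Cd86 and Cd274.

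The fitted log2 fold change of Pdcd1 in white over grey matter at 21 months was 4.23 ± 0.775 (SE) in the fit of all 8 libraries and 4.24 ± 0.639 without the oligodendrocyte-rich library. For 21 over 4 months within white matter it was 3.56 ± 0.752, and 4.32 ± 0.871 without that library. These contrasts share the old white matter libraries. Within grey matter, where PD-1 transcripts were few at either age, the log2 fold change for 21 over 4 months was -0.56 ± 0.764. White over grey matter at 4 months gave 0.11 ± 0.757, and -0.63 ± 0.867 without the oligodendrocyte-rich library. That contrast shares no library with the known one, but Pdcd1 passed the filter only with the old white matter libraries present. It was not kept when the 4-month libraries or the grey matter libraries were fitted alone. Its values in these contrasts are therefore also a description.

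Cd274 encodes PD-L1, the ligand of PD-1 that interferon is known to induce in many cell types. It was highest in old white matter as well, at 129.8 and 126.7 CPM in 21-month white matter, against 42.2 and 35.5 CPM in 21-month grey matter. It stood at 14.5 and 45.2 CPM in 4-month white matter and at 25.9 and 36.4 CPM in 4-month grey matter. The old white matter libraries lay above the other 6, and old grey matter lay within the range of the young libraries. The log2 fold change in white over grey matter at 21 months was 1.72 ± 0.525 (SE), and 1.72 ± 0.249 without the oligodendrocyte-rich library. For 21 over 4 months in white matter it was 2.10 ± 0.533 (edgeR adjusted p = 0.615) and 1.49 ± 0.319 without that library (edgeR adjusted p = 0.824), so it did not pass in either edgeR fit. DESeq2 on all 8 libraries gave 2.08 ± 0.620 with an adjusted p of 0.0323, and both tests use the old white matter libraries of the contrast that was known. In grey matter the aging difference was 0.32 ± 0.514 (edgeR adjusted p = 1), and white over grey matter at 4 months gave -0.054 ± 0.516 (edgeR adjusted p = 0.988). An antisense gene overlaps exons of Cd274 in GENCODE M21, and without a stated use of strand reads from both cannot be told apart. No other member's exons overlapped another gene there.

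Pdcd1lg2, the second ligand of PD-1 and the neighbour of Cd274 on chromosome 19, was barely detected. It had 2 counts in the first 21-month white matter library, 2 in the first 21-month grey matter library and 0 in the other 6. With a one-sided limit of 3 counts for a count of 0, its level could be up to 0.520 to 1.08 CPM in these 6 libraries. The two-sided 95% interval used for Pdcd1 would reach 3.69 counts. No fold is given.

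T cell transcripts were set beside Pdcd1, since T cells are a known source of PD-1. Cd3e, a chain of the CD3 complex that carries the T cell receptor's signal, stood at 2.35 and 2.96 CPM (10 and 12 counts) in 21-month white matter, against 0.197 and 0.278 CPM (1 count each) in 21-month grey matter. Among the young libraries it had 5 and 0 counts for white matter and 5 and 3 counts for grey matter. Cd3e was thus also highest in old white matter, on few counts. Its log2 fold change in white over grey matter at 21 months was 3.36 ± 1.51 (SE). Cd3e passed the filter with all 8 libraries but in no fit of the compared groups alone. Its fold change is therefore also a description. Cd3g, another CD3 chain, had 2 and 1 counts in old white matter, against 0 in both old grey matter libraries. It had 2 and 0 counts in young white matter, against 0 in both young grey matter libraries.

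**Figure D2:**
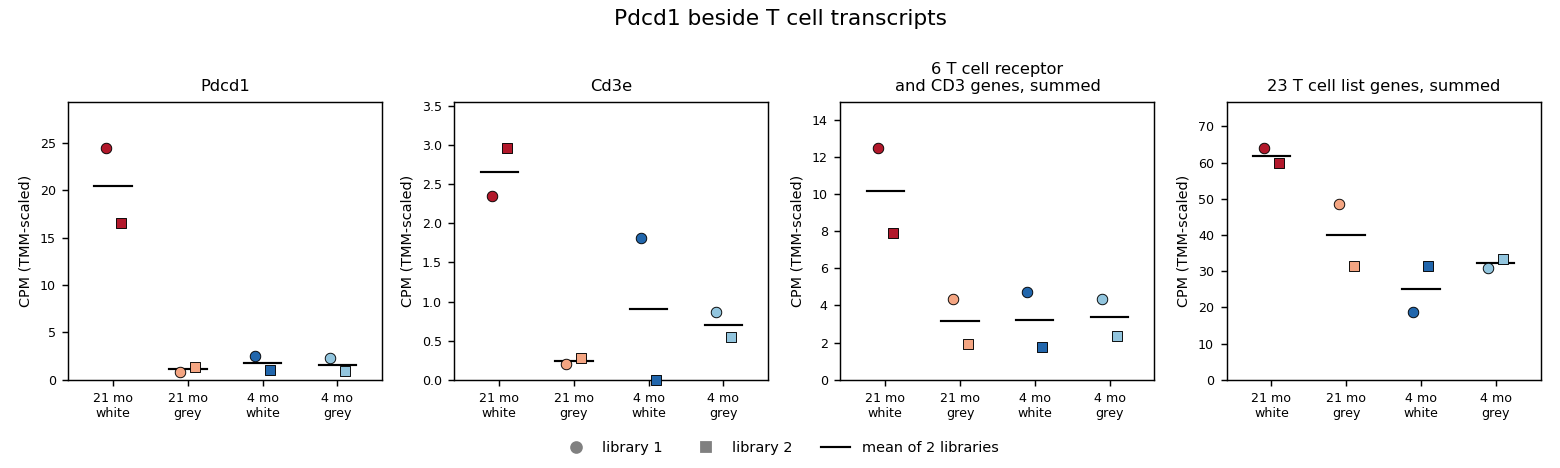
CPM (TMM-scaled, linear axes from 0) of Pdcd1, of Cd3e, of 6 T cell receptor and CD3 genes summed and of all 23 T cell genes summed, by library; circles are first and squares second libraries, and the bar is the mean of 2. All 4 measures are highest in 21-month white matter.

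The whole T cell list of 23 genes summed to 64.0 and 59.8 CPM in 21-month white matter, against 48.7 and 31.4 CPM in 21-month grey matter. The sum was 18.8 and 31.4 CPM in 4-month white matter and 30.9 and 33.5 CPM in 4-month grey matter. Between 2 and 12 of the 23 genes were at 0 in a library, 2 and 3 of them in 21-month white matter. The list's most abundant genes were Cd247, Ccl5, Thy1 and Cd28, of which NK cells also express Cd247 and Ccl5. Cd247 stood at 12.7 and 18.5 CPM in 21-month white matter, against 17.7 and 15.6 CPM in 21-month grey matter, so the regions overlapped. Gzmk, a granule protease of T cells, had 6 and 4 counts in the old white matter libraries and 0 in the other 6. Cd8a, a coreceptor of cytotoxic T cells, had 14 and 26 counts there and 0 to 7 elsewhere. Both were named after their values were seen, and not all of the list ran this way. Cd28, a receptor of CD80 and CD86, stood at 2.35 and 1.98 CPM in 21-month white matter, against 2.76 and 2.78 CPM in 21-month grey matter. It was lower without overlap, as were 19.5% of genes. Ccl5, Lck and Icos overlapped between these regions. Of 9 T cell genes tested, 6 lay above 0 in white over grey matter at 21 months, beside 8394 of 16237 genes. Of the 9, edgeR called 0, with 0 at an unadjusted p under 0.05, beside 381 genes. DESeq2 called 0 but gave no adjusted p for Cd3e. In the 21-month libraries alone 8 T cell genes were tested, Cd3e not among them, and edgeR called 0. Of the 8, 5 lay above 0, beside 7474 of 14717 genes. There 4 had an unadjusted p under 0.05, as did 1675 of 14717 genes. For 21 over 4 months in white matter 8 of 9 lay above 0, beside 8292 of 16237 genes. There 2 had an unadjusted p under 0.05, beside 1316 genes. Without the oligodendrocyte-rich library 12 of 14 lay above 0, beside 9079 of 17509 genes, and 1 had such a p, beside 673 genes. Only 3 T cell genes were kept in the 4-month libraries alone and 5 in the grey matter libraries alone. The filter can thus favour genes high in old white matter, and these counts are a description.

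Narrowed to 6 genes of the T cell receptor and CD3 (Cd3e, Cd3g, Cd3d, Trac, Trbc1 and Trbc2, a choice made after the values were seen), the sum was 12.5 and 7.90 CPM in 21-month white matter, against 4.33 and 1.94 CPM in 21-month grey matter. It was 4.70 and 1.75 CPM in 4-month white matter and 4.34 and 2.36 CPM in 4-month grey matter. For each count of these 6 genes there were 1.96 and 2.09 counts of Pdcd1 in 21-month white matter, against 0.182 and 0.714 in 21-month grey matter. At 4 months the ratio was 0.538 and 0.571 for white matter and 0.520 and 0.385 for grey matter. The ratio was thus higher in both old white matter libraries than in the other 6, where it rested on 7 to 25 receptor and CD3 counts a library. The fold change of Pdcd1 in white over grey matter at 21 months was known beforehand, so these ratios are only a description. Cd247, the zeta chain of the CD3 complex, was left out of these 6 genes. It had 54 and 75 counts in 21-month white matter, against 90 and 56 in 21-month grey matter, and counting it would lower the ratios. The part of T cells in the level of Pdcd1 was not tested.

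Marker lists of other cells that a CD11b selection can hold were read the same way. NK cell genes summed to 11.995 and 10.1 CPM in 21-month white matter, against 21.7 and 11.7 CPM in 21-month grey matter. Monocyte genes summed to 590.1 and 364.5 CPM in 21-month white matter and to 970.1 and 725.1 CPM in 21-month grey matter. Neutrophil genes summed to 322.2 and 83.7 CPM in 21-month white matter, against 2344 and 2000 CPM in 21-month grey matter. Markers of border-associated macrophages, which line vessels and meninges, summed to 208.2 and 273.6 CPM in 21-month white matter, against 482.2 and 507.7 CPM in 21-month grey matter. NK cell genes overlapped between the regions, and the other 3 lists were lower in old white matter, where Pdcd1 and Cd274 were higher. Dendritic cell genes summed to 485.2 and 509.7 CPM and B cell genes to 410.2 and 376.6 CPM in 21-month white matter, against 647.6 and 675.9 CPM and 399.3 and 475.2 CPM in 21-month grey matter. The most abundant gene was Siglech in the dendritic cell list, Ighm in the B cell list, Nr4a1 in the monocyte list and Maf in the border-associated macrophage list. Siglech is also in the list of microglia markers, so the dendritic cell sum does not measure dendritic cells alone. The part of these cells in the members' levels was not tested.

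Havcr2 encodes TIM-3, a receptor of exhausted T cells that microglia also carry. It stood at 426.4 and 397.1 CPM in 21-month white matter, against 332.1 and 365.6 CPM in 21-month grey matter. At 4 months it stood at 58.9 and 321.8 CPM for white matter and at 362.2 and 354.2 CPM for grey matter. Both old white matter libraries lay above the other 6, as for Pdcd1 and Cd274. Apart from the oligodendrocyte-rich library, all libraries lay within a 1.33-fold range. The log2 fold change for 21 over 4 months in white matter was 1.11 ± 0.703 (SE; edgeR adjusted p = 0.675), and 0.34 ± 0.256 without that library (edgeR adjusted p = 1).

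Lag3, a receptor related to CD4 that binds MHC class II, had its largest SD in CPM in 4-month grey matter. As a ratio, its libraries lay furthest apart in 4-month white matter. It stood at 485.5 and 394.6 CPM in 21-month white matter, against 405.0 and 455.5 CPM in 21-month grey matter. It stood at 54.2 and 252.5 CPM in 4-month white matter and at 573.6 and 258.2 CPM in 4-month grey matter. The regions overlapped at 21 months. Young white matter lay below young grey matter, by a margin of 252.5 against 258.2 CPM between the nearest libraries. The log2 fold change in white over grey matter at 4 months was -1.44 ± 0.735 (SE; edgeR adjusted p = 0.617), and -0.69 ± 0.439 without the oligodendrocyte-rich library (edgeR adjusted p = 0.920).

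Sirpa, whose product receives the CD47 signal that restrains phagocytosis, had the most counts of the members. It stood at 1156 and 1054 CPM in 21-month white matter, against 1024 and 1171 CPM in 21-month grey matter. It stood at 187.9 and 894.6 CPM in 4-month white matter and at 1171 and 1116 CPM in 4-month grey matter. Without the oligodendrocyte-rich library all libraries lay within a 1.31-fold range, and regions overlapped at 21 months. The log2 fold change for 21 over 4 months was 1.03 ± 0.695 (SE; edgeR adjusted p = 0.685) in white matter, 0.29 ± 0.281 there without that library (edgeR adjusted p = 1), and -0.060 ± 0.688 in grey matter (edgeR adjusted p = 1). Reads that Sirpa shares with its near relatives Sirpb1a, Sirpb1b and Sirpb1c cannot be assigned from the table. The relatives had at most 79 counts each in a library, beside at least 520 of Sirpa. The list of 9 relatives of the members, of which 8 were in the table, summed to 10.3 and 10.9 CPM in 21-month white matter, against 38.6 and 18.3 CPM in 21-month grey matter.

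Cd200r1 encodes the receptor of CD200 and was near the limit of what these depths resolve. It stood at 8.23 and 5.43 CPM (35 and 22 counts) in 21-month white matter, against 10.2 and 2.50 CPM (52 and 9 counts) in 21-month grey matter. Young libraries had 3.25 and 7.73 CPM (9 and 31 counts) for white matter and 5.38 and 5.45 CPM (31 and 30 counts) for grey matter. The widest spread was between the old grey matter libraries, and all groups overlapped. Its log2 fold changes in the 4 contrasts ran from 0.036 to 0.30, with SE of 0.762 to 0.774.

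Cd86 and Cd80, the ligands of CD28 and CTLA-4, differed in how they varied. Cd86 stood at 178.0 and 142.2 CPM in 21-month white matter, against 133.5 and 121.3 CPM in 21-month grey matter. It stood at 17.4 and 112.8 CPM in 4-month white matter and at 109.1 and 114.2 CPM in 4-month grey matter. Both old white matter libraries lay above the other 6, and old grey matter lay above young grey matter, by small margins. The log2 fold change for 21 over 4 months was 1.30 ± 0.731 in white matter (SE; edgeR adjusted p = 0.646), 0.50 ± 0.269 there without the oligodendrocyte-rich library (edgeR adjusted p = 1) and 0.19 ± 0.718 in grey matter (edgeR adjusted p = 1).

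Cd80 stood at 26.3 and 20.7 CPM in 21-month white matter, against 23.4 and 20.0 CPM in 21-month grey matter. It stood at 8.31 and 24.0 CPM in 4-month white matter and at 27.2 and 19.8 CPM in 4-month grey matter. All groups overlapped. Its log2 fold change for 21 over 4 months was 0.54 ± 0.528 in white matter (SE; edgeR adjusted p = 0.769), and -0.035 ± 0.369 without the oligodendrocyte-rich library (edgeR adjusted p = 1), so its sign rested on that library.

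In the oligodendrocyte-rich library, 6 of the 8 tested members had their lowest level, while Pdcd1 was the highest of the young libraries and Cd200r1 was above its lowest. Set against the summed microglia markers of the same library, its levels of Havcr2, Lag3, Cd86 and Sirpa came closer to the others. Sirpa had 41.9 counts per 1000 microglia marker counts there and 45.1 to 66.2 in the other 7 libraries, Havcr2 13.1 and 13.9 to 24.4, Lag3 12.1 and 12.7 to 27.8, and Cd86 3.87 and 4.20 to 10.2. For these 4 the ratio was still below that of every other library. Cd80 had 1.85 there and 0.977 to 1.51 in the other 7, and Cd200r1 0.725 and 0.125 to 0.621, so both were above every other library. Cd274 had 3.22 there and 0.994 to 7.44 in the other 7. Pdcd1, on 7 counts, had 0.564 there, against 1.40 and 0.959 in 21-month white matter and 0.0448 to 0.0867 in the other 5. Cd3e, on 5 counts, had its highest ratio of all libraries there, 0.403 per 1000.

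**Figure D3:**
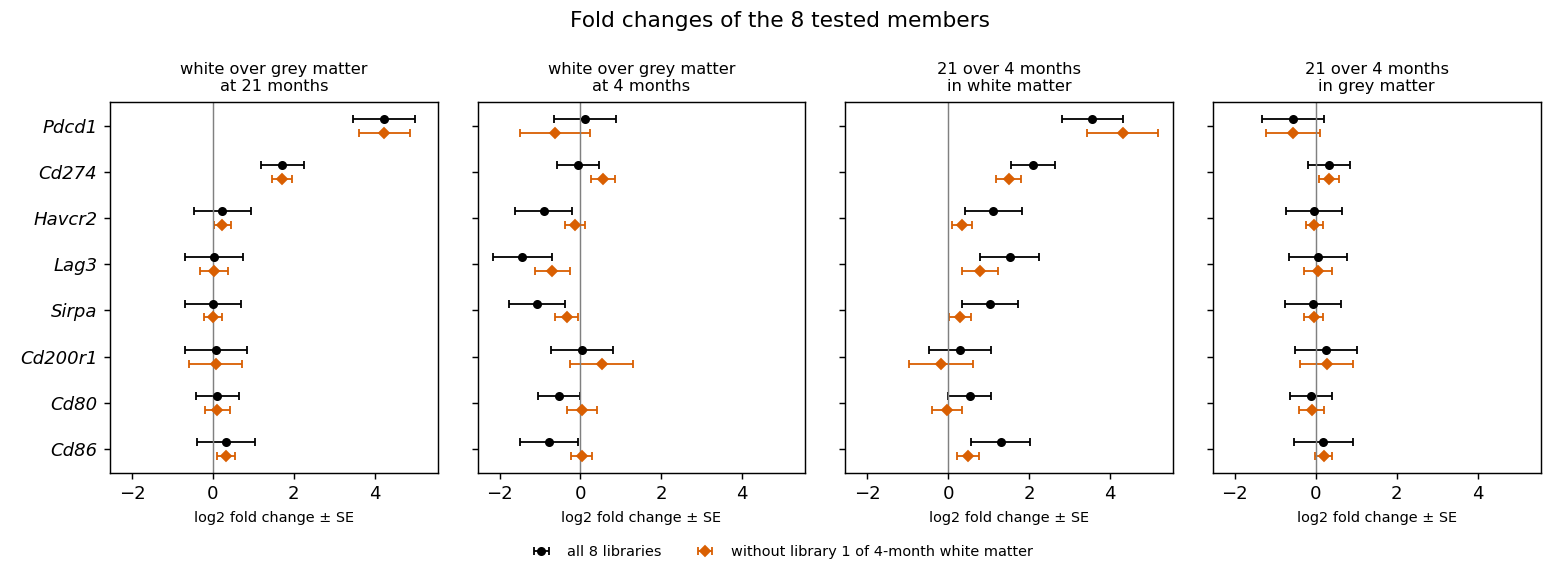
Log2 fold change with its SE (edgeR) of the 8 tested genes in 4 contrasts, with all 8 libraries (black circles) and without the oligodendrocyte-rich library (orange diamonds). Pdcd1 at 4.23 and Cd274 at 1.72 lead in white over grey matter at 21 months, and the values of Havcr2, Lag3, Sirpa and Cd86 in the contrasts with 4-month white matter move toward 0 without that library.

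Calls were made over all genes at a Benjamini-Hochberg adjusted p under 0.05, with the quasi-likelihood test of edgeR. In white over grey matter at 21 months, with all 8 libraries, 0 of 8 members and 0% of 16237 genes were called. At an unadjusted p under 0.05 the test found 2 members and 381 genes. DESeq2 called 1 member and 0.26% of genes, 0.0945% higher and 0.165% lower. Leaving out the oligodendrocyte-rich library, edgeR called 0 members, 2 with an unadjusted p under 0.05, and 0.109% of 17509 genes, 0.0742% higher and 0.0343% lower. There 1035 genes had an unadjusted p under 0.05. In the 21-month libraries alone edgeR called 2 members higher, Pdcd1 and Cd274, where 0.985% of 14717 genes were called higher and 0.591% lower. The other 6 tested members had log2 fold changes of 0.009 to 0.33 in this contrast. Nothing is read from these counts, because the contrast was known when the genes were chosen. In 21 over 4 months in white matter 0 members and 0% of genes were called. There 2 members and 1316 genes had an unadjusted p under 0.05, and DESeq2 called 2 members higher, Pdcd1 and Cd274, with 2.65% of its genes called, 0.345% higher and 2.31% lower. Nothing is read from the call of Pdcd1 here either, since this contrast uses the old white matter libraries of the known one, and that of Cd274 rests on the same libraries. Without the oligodendrocyte-rich library, edgeR called 0 members in this contrast, with 2 at an unadjusted p under 0.05, and 0.00571% of 17509 genes. There 673 genes had an unadjusted p under 0.05. In white over grey matter at 4 months and in grey matter aging edgeR called 0 members and 0% of genes. In both, 0 members had an unadjusted p under 0.05 and DESeq2 called 0 members. Pdcd1 was tested by edgeR in both only because the fit held the old white matter libraries. Of all genes DESeq2 called 3.43% at 4 months, 3.15% higher and 0.283% lower, and 0% in grey matter aging. The difference between the aging changes, which contains the known contrast, gave log2 values of 4.12 ± 1.06 for Pdcd1 and 1.78 ± 0.731 for Cd274 (SE).

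Libraries of both groups did not overlap for 4 of the 8 tested members in white over grey matter at 21 months (Pdcd1, Cd274, Havcr2 and Cd86), all higher, where 20.9% of genes lay higher without overlap. In 21 over 4 months in white matter this held for 6 members, Pdcd1, Cd274, Havcr2, Lag3, Cd86 and Sirpa, all higher, where 19.8% of genes did so. In white over grey matter at 4 months 3 members, Havcr2, Lag3 and Sirpa, were lower without overlap, where 15.5% of genes were. In grey matter aging 1 member, Cd86, was higher, where 17.2% of genes were. The contrasts share libraries and are not independent of each other.

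Partners and signal carriers of these receptors were read from a list of 48 genes, of which 46 were in the table and 37 were tested. Of these, edgeR called 0 in either direction in any contrast, with all 8 libraries or without the oligodendrocyte-rich library. At an unadjusted p under 0.05 there were 2 at 21 months, 8 at 4 months, 4 in white matter aging and 0 in grey matter aging with all 8 libraries. Of all 16237 genes these were 381, 1446, 1316 and 120, in the same order. DESeq2 called 1 lower at 4 months, where 0.283% of genes were, and 1 higher in white matter aging, where 0.345% were. In white over grey matter at 21 months 15 of 37 lay above 0, with a median log2 fold change of -0.036, beside 0.017 over all genes. For 21 over 4 months in white matter 30 of 37 lay above 0 with a median of 0.79, beside 0.019 over all genes. Without the oligodendrocyte-rich library it was 25 of 38 and 0.28, beside 0.024. In white over grey matter at 4 months 6 of 37 lay above 0 with a median of -0.95, beside 0.011 over all genes, and 10 of 38 with -0.28, beside -0.022, without that library. Scaled to the microglia marker counts, which put the median of all genes at 1.56 in that contrast and at -1.14 in white matter aging, the list's medians were 0.12 and 0.072. In grey matter aging 15 of 37 lay above 0 with a median of -0.070, beside -0.017.

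The 4 most abundant of these genes were Vsir, Inpp5d, Cd74 and Fyb. Vsir, which encodes the checkpoint protein VISTA, stood at 554.8 and 510.9 CPM in 21-month white matter, against 578.3 and 695.6 CPM in 21-month grey matter. Inpp5d, the phosphatase SHIP1 that acts downstream of inhibitory receptors, stood at 555.8 and 507.5 CPM in 21-month white matter, against 549.5 and 600.7 CPM in 21-month grey matter. Cd74, the invariant chain of MHC class II, stood at 600.5 and 335.6 CPM in 21-month white matter and at 1124 and 461.9 CPM in 21-month grey matter. Inpp5d and Cd74 overlapped between the regions, and Vsir was lower in white matter without overlap, as were 19.5% of genes. Fyb, an adaptor of T cell and myeloid signalling, stood at 606.6 and 500.8 CPM in 21-month white matter, against 406.9 and 487.7 CPM in 21-month grey matter. It was higher without overlap, as were 20.9% of genes.

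The genes whose pattern was most like that of Pdcd1 were Apoe, Ch25h, Egln3, Stra6l and Dkk2, out of 12395 named genes compared. Likeness was the root mean square difference between log2 CPM profiles, each centred on its own mean over the 8 libraries, and was 0.358, 0.480, 0.564, 0.593 and 0.640 for these 5. Apoe encodes a lipid carrier, Ch25h an enzyme that makes 25-hydroxycholesterol, and Egln3 an oxygen-sensing prolyl hydroxylase. Apoe stood at 4443 and 3142 CPM in 21-month white matter, against 270.8 and 245.9 CPM in 21-month grey matter. Ch25h, Stra6l and Dkk2 had 0 to 3 counts in each library other than old white matter, so their profiles rest on the old white matter libraries. By the same measure Cd3e was at 0.883 and Cd274, whose range was narrower, at 1.09.

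**Figure D4:**
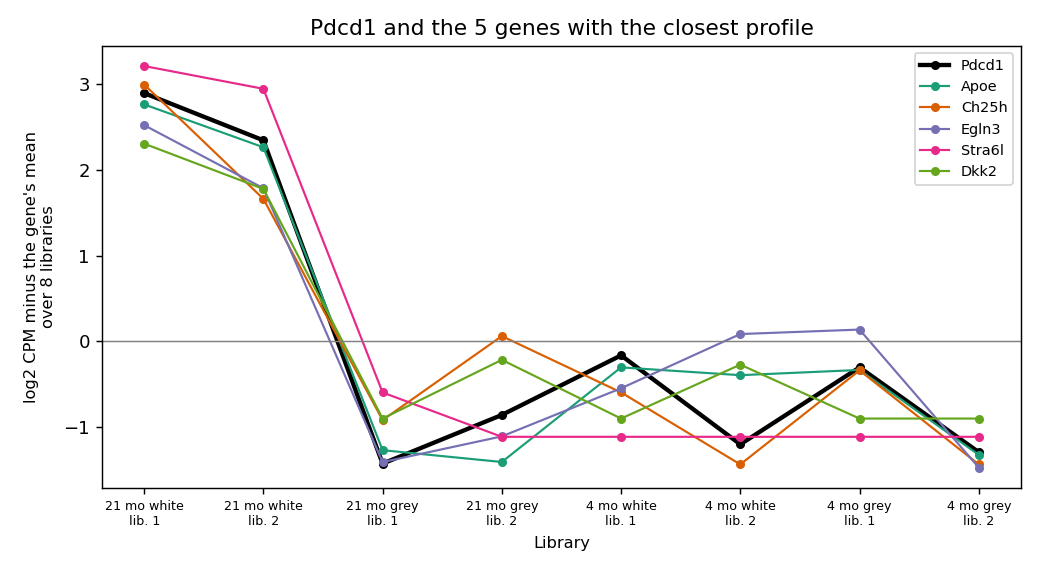
Log2 CPM of Pdcd1 (thick black line) and of the 5 genes with the closest profile, each minus its mean over the 8 libraries; lines only join the points of 1 gene. All 6 genes are highest in both 21-month white matter libraries, which follows from choosing the 5 by likeness to Pdcd1 over these libraries.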

How the data were processed

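RNA of CD11b-selected cells was sequenced on an Ion Proton instrument, per the labels' protocols. The authors deposited estimated counts per gene symbol and, in a second table, a normalised signal. The submitters' processing notes name Partek and DESeq2, with no role; the sources used here do not give aligner, build, annotation or strand. In each library the deposited signal is the rounded count scaled by a single factor, within 1e-06. Another file, which repeats region and age, was not used.

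Counts were rounded to whole numbers, filtered with filterByExpr and scaled by TMM, and 4 group means were fitted with edgeR 4.0.16 (robust quasi-likelihood) to 16237 genes with 4 residual degrees of freedom. P-values were adjusted over all genes, and SE derived from F. With 2 libraries against 2, an exact two-sided permutation test cannot go below p = 0.333. Alternatives were RLE scaling, no filter, DESeq2 1.42.0, limma 3.58.1 on log2(signal + 1), the compared groups alone, a replicate block and leaving out each library; scaling to 15 microglia marker counts was added after seeing the data. The fits were tested on simulated data with a smaller dispersion than these data, changes only in genes with higher counts and no outlying library. That test does not cover genes with few counts. Members, lists and tests were chosen with earlier results of these data known. The text names all members, Cd3e, Cd3g, the 4 most abundant genes of the T cell and partner lists and the 5 genes most like Pdcd1. Some other list genes are also named. Marker lists of neurons and relatives of the members were also summed. Intervals and limits at 0 cover counting error only.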

Additional observations from a re-analysis of the deposited data

Results flagged for a closer look

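Havcr2 was marked because its libraries lay in opposite orders at the 2 ages. Both 21-month white matter libraries (426.4 and 397.1 CPM) lay above both of 21-month grey matter (332.1 and 365.6 CPM), while both 4-month white matter libraries (58.9 and 321.8 CPM) lay below both of 4-month grey matter (362.2 and 354.2 CPM). The difference between the aging changes was 1.15 on the log2 scale (edgeR adjusted p = 1.00), and 0.38 without the oligodendrocyte-rich library, the first of 4-month white matter (edgeR adjusted p = 1). It did not pass in either fit. Groups of 2 libraries are too small for a check of single outlying samples.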

How the results depend on the processing

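With all 8 libraries, edgeR called 0 members in each of the 5 comparisons. In white over grey matter at 21 months it was 1 with no filter (0.447% of all genes called), 1 with DESeq2 (0.26%) and 2 with the compared groups alone (1.58%). In white matter aging it was 2 with no filter (2.93%) and 2 with DESeq2 (2.65%). In the difference between aging changes it was 1 with no filter (1.43%). Leaving out 1 library gave 0 in each comparison, except without the second 4-month white matter library, where only the first stood for the group and was assumed to vary like the others. The range was then 0 to 6 in white over grey matter at 4 months, 0 to 7 in white matter aging and 0 to 5 in the difference, where without that library 23.7%, 25.1% and 13.5% of 17859 genes were called in these comparisons. The cause was not tested. With the replicate block 0 members were called in all 5. Labels tie the numbers to no animal or day, and deviations of same-numbered libraries correlated between groups at -0.141 to 0.415. Of the members' fold changes, 243 kept direction and side of the threshold under settings other than a left-out library, 9 passed it and 18 changed sign; with a library left out these were 275, 18 and 27. On the log2 scale, Sirpa in white over grey matter at 21 months was -0.006 with RLE, -0.008 with DESeq2 and -0.006 with limma. Cd200r1 was -0.005 with no filter and -0.076 with limma at 4 months, -0.046 with limma in grey matter aging and -0.005 with RLE in the difference. Scaling to microglia markers, chosen after seeing the data, moved the median of all genes to 1.56 in white over grey matter at 4 months, -1.14 in white matter aging, 0.32 in grey matter aging and -1.47 in the difference. Under it Cd274 was 1.07, Havcr2 0.030, Cd86 0.10 and Cd80 0.68 at 4 months; Cd80 -0.26 and Cd200r1 -0.55 in white matter aging; Havcr2 0.29, Cd80 0.26 and Sirpa 0.27 in grey matter aging; and Cd80 -0.51 and Cd200r1 -1.20 in the difference. With 1 library left out, values that changed sign ranged at 21 months from -0.15 to 0.18 for Lag3, -0.095 to 0.28 for Cd80, -0.58 to 1.44 for Cd200r1 and -0.086 to 0.11 for Sirpa. At 4 months they ranged from -0.63 to 0.87 for Pdcd1, -1.14 to 0.55 for Cd274, -2.71 to 0.031 for Cd86, -1.53 to 0.046 for Cd80 and -0.76 to 0.53 for Cd200r1. In white matter aging the range was -0.035 to 1.53 for Cd80 and -0.19 to 1.09 for Cd200r1. In grey matter aging it was -1.06 to 0.22 for Pdcd1, -0.12 to 0.028 for Havcr2, -0.42 to 0.73 for Lag3, -0.33 to 0.13 for Cd80, -1.11 to 0.91 for Cd200r1 and -0.17 to 0.032 for Sirpa. In the difference Cd200r1 ranged from -0.60 to 1.42. Depth limits Pdcd1lg2, Cd200r1 and, outside old white matter, Pdcd1, which had at most 13 counts in a library there.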

Other observations

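Sirpb1a, Sirpb1b and Sirpb1c, activating relatives of Sirpa, were lower in white than in grey matter at both ages. Sirpb1b had 1.18 and 1.24 CPM in 21-month white matter, against 12.02 and 7.77 CPM in 21-month grey matter, and 1.45 and 0.748 CPM in 4-month white matter, against 13.7 and 4.55 CPM in 4-month grey matter. Its log2 fold change in white over grey matter was -3.01 ± 0.768 (SE; edgeR adjusted p = 1) at 21 months and -3.06 ± 0.791 (edgeR adjusted p = 0.479) at 4 months, so it did not pass. Sirpb1a lay at -2.71 and -2.42 and Sirpb1c at -2.12 and -1.46 in the same contrasts. In the 21-month libraries alone, 3 genes were tested of the list of 9 relatives of the members, which is wider than the Sirpb1 genes. Of these, 1 lay above 0 and 2 below, and 1 was called lower, where 0.591% of all genes were. The 12 neutrophil genes were also lower, at 236.0 and 572.5 CPM in 4-month white matter, against 4517 and 2158 CPM in 4-month grey matter. Their part in the Sirpb1 levels was not tested.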
